A study of Mus musculus with 24 samples.

Results

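Complex I of the respiratory chain oxidises NADH, passes the electrons to ubiquinone and pumps protons across the inner mitochondrial membrane. Brown adipose tissue makes heat: it is packed with mitochondria, and the uncoupling protein Ucp1 lets the protons flow back without making ATP. The complex is built from an N module that binds NADH, a Q module that reduces ubiquinone and a membrane-embedded P module that pumps protons, with assembly factors that help to join them and then leave. The genes described here are all those whose deposited identifier begins with Nduf. They number 45 of the 13162 genes listed in any of the 5 comparison tables, and all 45 were listed in every table. By their known roles, 36 encode subunits, of which 7 are core subunits that carry the redox centres and 29 are supernumerary subunits without such a role. Another 7 encode assembly factors (Ndufaf1 to Ndufaf7). The remaining 2 carry the name but are placed elsewhere: Ndufa4 works as a subunit of cytochrome c oxidase, and Ndufa4l2 is its hypoxia-linked paralogue. The mitochondrially encoded subunits were not analysed here.

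RNA was sequenced from the interscapular brown fat pad of C57BL/6 males, 10 to 12 weeks old, all taken at the same point of the light cycle (ZT10). HDAC3 was floxed in every mouse. Those labelled as floxed alone are the Control, and the knockout (KO) also carried Ucp1-cre, a Cre recombinase driven by a promoter of brown adipocytes. HDAC3 is a histone deacetylase of nuclear receptor corepressor complexes. Each genotype was studied at 22 °C, and after 24 h at 15 °C followed by a return to 22 °C for 24 h (24 h recovery) or for 7 d (7 d recovery). This gave 6 groups of 4 libraries, and no group was sampled during the cold itself. The authors deposited a mean per group in RPKM (reads scaled for gene length and for the library's total) and, for each pair of groups compared, a log2 fold change with an adjusted p-value from edgeR. Values of single libraries are not among the deposited columns, so the spread between the 4 libraries of a group cannot be shown. The standard errors (SE) given here were rebuilt from each deposited fold change and its p-value. A gene is called higher or lower where the deposited adjusted p is under 0.05.

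Library totals, estimated from the step size of low deposited means, ranged from 4.64e+06 to 1.25e+07 reads. The estimates matched 69.1% to 82.5% of the frequent steps, depending on the group. The totals were picked to match these same steps, and the search had a lower bound not far below the lowest estimate. A smaller library could thus not be found, and the totals are rough. Both ends of the range fall in Control at 7 d, the group with the lowest match. Hdac3 checked the labels: its deposited mean was 26.1 RPKM in Control and 8.57 RPKM in KO at 22 °C, 27.1 and 6.43 RPKM at 24 h, and 25.4 and 7.43 RPKM at 7 d, and it was called lower in KO at all 3 times. No cell type marker examined was at 0 in any group. The ratio of KO to Control means lay below the deposited fold change, by a median over all genes of 0.234 at 22 °C, 0.136 at 24 h and 0.065 at 7 d on the log2 scale. Changes are therefore given on the deposited scale unless a ratio of means is named.

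Promoters of 5 members that the results below describe are shown first. NRF1, nuclear respiratory factor 1, is known for its sites before genes of the respiratory chain and binds a palindrome that reads GCGCA, then any base, then GCGC. Sequences came from the RefSeq promoter table (build GRCm38.p6), which gives 250 bases before and 50 bases after each gene start. Ndufaf4 is shown for its NRF1 match and its rise in KO during recovery, the largest of the members. Ndufb4 is shown for its NRF1 matches and Ndufs6 as an N module subunit with a match. Ndufv1 and Ndufs8 are the subunits with the lowest log2 fold changes of KO over Control at 22 °C. The 5 were picked, so they do not compare members with and without a match. With recovery in KO, Ndufb4 and Ndufs8 both had a deposited log2 fold change of 1.53, and Ndufb6, without an NRF1 match, had 2.03. Each line holds the 250 bases before the start, 5′ to 3′ on the gene's own strand. Capitals mark NRF1 matches, and in Ndufb4 also a match to TNAAGGTCA, an element of the estrogen-related receptors (ERR).

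Ndufaf4 (chr4:24897833-24898082, plus strand): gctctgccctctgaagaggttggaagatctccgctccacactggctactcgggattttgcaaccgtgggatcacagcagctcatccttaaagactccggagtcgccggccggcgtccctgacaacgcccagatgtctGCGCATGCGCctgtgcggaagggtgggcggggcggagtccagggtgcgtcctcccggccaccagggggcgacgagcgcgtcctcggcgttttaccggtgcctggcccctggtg
Ndufb4 (chr16:37654369-37654618, minus strand): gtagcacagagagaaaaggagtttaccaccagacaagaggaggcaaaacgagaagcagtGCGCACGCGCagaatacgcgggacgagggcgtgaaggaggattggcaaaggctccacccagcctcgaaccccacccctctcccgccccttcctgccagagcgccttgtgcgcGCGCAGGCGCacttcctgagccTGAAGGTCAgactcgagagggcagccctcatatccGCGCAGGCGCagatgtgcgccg
Ndufs6 (chr13:73328483-73328732, minus strand): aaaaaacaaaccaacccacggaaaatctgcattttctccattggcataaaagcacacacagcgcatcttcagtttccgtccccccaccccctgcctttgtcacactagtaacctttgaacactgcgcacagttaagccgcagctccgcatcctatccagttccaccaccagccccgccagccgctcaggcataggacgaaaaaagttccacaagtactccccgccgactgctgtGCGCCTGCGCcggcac
Ndufv1 (chr19:4012756-4013005, minus strand): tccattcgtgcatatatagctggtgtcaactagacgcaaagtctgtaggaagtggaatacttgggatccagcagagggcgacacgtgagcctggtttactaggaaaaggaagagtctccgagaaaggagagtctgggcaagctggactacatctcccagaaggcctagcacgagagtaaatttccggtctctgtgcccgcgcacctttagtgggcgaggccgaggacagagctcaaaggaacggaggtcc
Ndufs8 (chr19:3912775-3913024, minus strand): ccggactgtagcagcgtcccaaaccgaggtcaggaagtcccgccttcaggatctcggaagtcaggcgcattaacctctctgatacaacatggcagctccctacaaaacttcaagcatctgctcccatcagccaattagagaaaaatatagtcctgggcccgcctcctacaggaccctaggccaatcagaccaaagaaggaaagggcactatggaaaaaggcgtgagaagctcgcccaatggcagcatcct

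The Ndufb4 stretch held 3 NRF1 matches, and the motif ERR lay between the second and the third of them, 57 bases before the gene start. Ndufaf4 held 1 NRF1 match, 113 bases before its start, and Ndufs6 held 1, 16 bases before its start. None of the 4 motifs searched (NRF1, ERR, CCGGAAG of the ETS factors and AANATGGCG of YY1) lay in the bases shown for Ndufv1 and Ndufs8, although an ETS match began 15 bases after the start of Ndufs8. All motifs were searched on both strands, and no match overlapped one of another motif.

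Promoters of 39 members were matched by symbol, giving 41 promoters; those of the other members, among them Ndufa2, Ndufa4l2, Ndufaf6, Ndufb9 and Ndufs1, were not used here. NRF1 matches stood in 10 of these 41 promoters (24.4%), against 4.60% of all 32851 promoters and 9.88% of the 11999 promoters of genes listed in the tables. They belonged to 9 genes: Ndufa5, Ndufa6, Ndufa8, Ndufa11, Ndufaf4, Ndufaf5, Ndufb4, Ndufs5 and Ndufs6. YY1 matches stood in 17.1% of the member promoters, against 4.95% of those of listed genes. ETS matches stood in 12.2%, against 17.1% of those of listed genes. The ERR match of Ndufb4 was the only one among the members (2.44%, against 0.717%). In all, 20 members held a match to at least 1 motif. The shares are descriptions without a test, a match is not a bound site, and no match says only that these letters are not in the 300 bases.

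**Figure D1:**
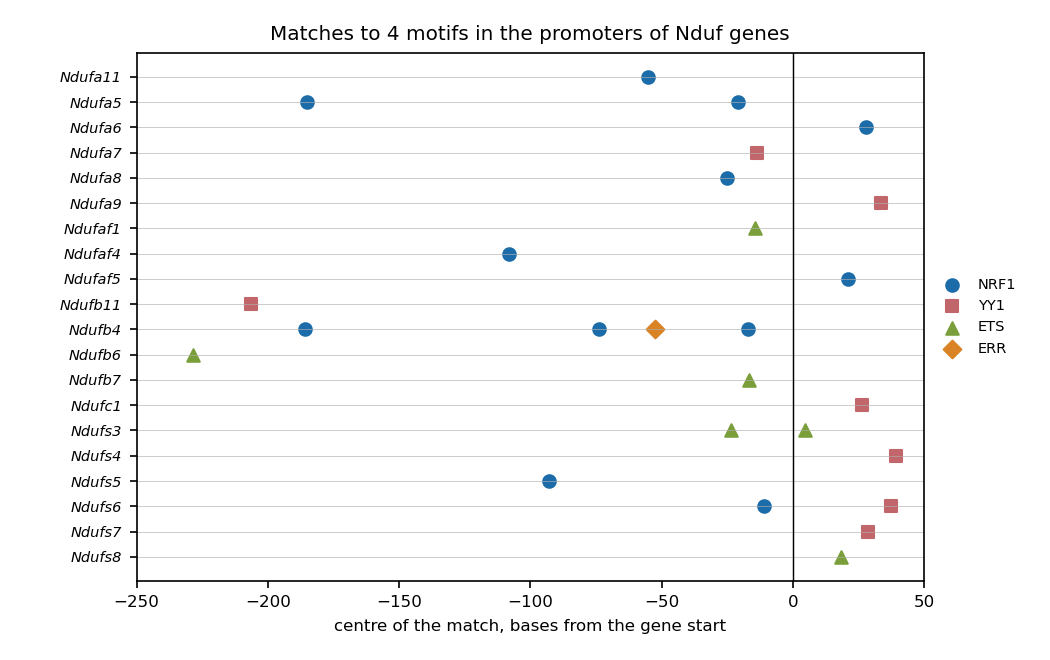
Matches to 4 motifs in the promoters of the 20 Nduf genes that hold any, plotted by the centre of each match in bases from the gene start (0), with 1 row per gene. NRF1 matches (circles) fall on 9 genes, and Ndufb4 carries 3 of them beside the only ERR match (diamond).

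In Control brown fat at 22 °C, complex I transcripts were abundant and uneven. Of the 36 subunits, 34 had a deposited mean above 50 RPKM; the exceptions were Ndufab1, the mitochondrial acyl carrier protein, with 19.8 RPKM, and Ndufa11, a stabiliser of the membrane arm, with 28.9 RPKM. The subunit with the highest mean was Ndufb8 of the distal P module, with 851 RPKM. Assembly factors were far lower, with none above 27.0 RPKM, the mean of Ndufaf1. Across all 45 members the highest mean was that of Ndufa4 (1334 RPKM) and the lowest that of Ndufa4l2 (3.20 RPKM). Values of Ndufa11, Ndufa12, Ndufab1, Ndufb4, Ndufs5 and Ndufs6 are uncertain because near-identical copies exist in the mouse genome and the sources used here do not give how shared reads were handled. Likewise, the kit does not mark strand, so reads of a gene and of an antisense partner cannot be told apart.

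**Figure D2:**
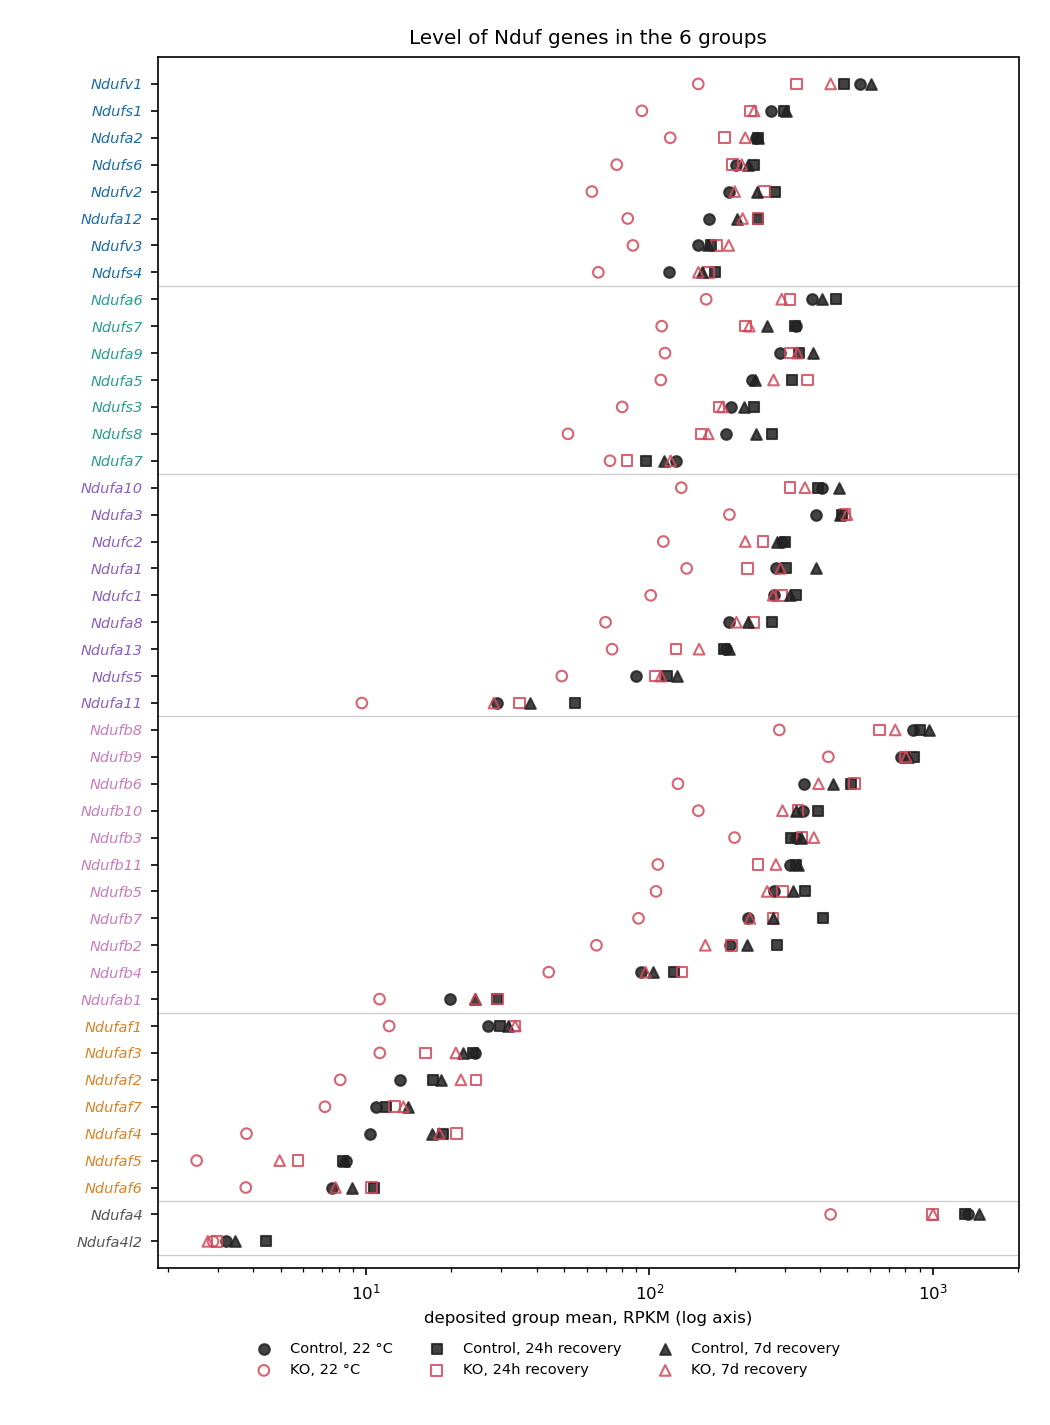
Deposited group mean of 44 of the 45 Nduf genes in RPKM (log axis), with filled symbols for Control, open symbols for KO, and circles, squares and triangles for 22 °C, 24 h and 7 d; rows are grouped by module, then assembly factors, then Ndufa4 and Ndufa4l2. The KO mean at 22 °C (open circle) is the lowest of the 6 means in 43 rows, and in the row of Ndufa4l2 it is not.

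The comparison of KO with Control at 22 °C asks how complex I transcripts depend on Hdac3 in brown fat that met no cold. Every subunit gene was lower in KO: all 36 were called lower in the authors' deposited table, with a median log2 fold change of -1.11, against -0.01 over all genes. Of the 45 members, 43 were called lower and 0 higher, beside 18.0% called lower and 16.3% called higher among the 12710 genes of that table. The 2 members not called were Ndufa4l2 and Ndufaf7. In whole tissue, fewer brown adipocytes and less RNA per cell cannot be told apart.

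The 7 core subunits had a median deposited log2 fold change of -1.33 and the 29 supernumerary subunits a median of -1.002; the difference between these groups was not tested. Ndufv1 binds NADH and carries the flavin that takes its electrons. Its deposited mean was 555 RPKM in Control and 149 RPKM in KO at 22 °C, 486 and 331 RPKM at 24 h, and 604 and 436 RPKM at 7 d. KO stood below Control at each time and furthest at 22 °C, where the deposited log2 fold change was -1.66 (SE 0.15, adjusted p 7.28e-26), the lowest of all 45. Ndufs8, a Q module subunit that holds iron-sulfur clusters, averaged 186 RPKM in Control and 51.6 RPKM in KO at 22 °C, 271 and 152 RPKM at 24 h, and 239 and 161 RPKM at 7 d in the deposited means. At 22 °C its deposited log2 fold change was -1.62 (SE 0.16, adjusted p 3.83e-22), the lowest in the Q module.

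Of the other core subunits, Ndufs1, the largest subunit of the N module and a chain of iron-sulfur clusters, had deposited means of 269 RPKM in Control and 94.1 RPKM in KO at 22 °C, 299 and 228 RPKM at 24 h, and 303 and 234 RPKM at 7 d. Ndufv2, the small partner of Ndufv1, had deposited means of 190.3 RPKM in Control and 62.6 RPKM in KO at 22 °C, 278 and 254 RPKM at 24 h, and 240.3 and 199.97 RPKM at 7 d. KO at 22 °C was the lowest of the 6 means in both, while in Ndufv2 the KO means of both recovery times lay above the Control mean at 22 °C. Both genes were called lower at 22 °C, with deposited log2 fold changes of -1.28 (SE 0.13, adjusted p 7.58e-21) for Ndufs1 and -1.37 (SE 0.14, adjusted p 1.02e-19) for Ndufv2. In the Q module, Ndufs7 carries the last iron-sulfur cluster before ubiquinone, with deposited means of 329 RPKM in Control and 111 RPKM in KO at 22 °C, 326 and 218 RPKM at 24 h, and 261 and 225 RPKM at 7 d. Ndufs3, another Q module subunit, had deposited means of 195 RPKM in Control and 80.1 RPKM in KO at 22 °C, 234 and 176 RPKM at 24 h, and 216 and 181 RPKM at 7 d. In both genes KO stood below Control at every time, and furthest at 22 °C, with deposited log2 fold changes of -1.33 (SE 0.15, adjusted p 6.27e-17) for Ndufs7 and -1.05 (SE 0.15, adjusted p 1.38e-11) for Ndufs3.

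Supernumerary subunits ranged from -1.41 to -0.48 in deposited log2 fold change at 22 °C. At the low end stood Ndufa10, a P module subunit of the nucleoside kinase family, whose mean fell from 405 RPKM in Control to 129.6 RPKM in KO (-1.41, SE 0.15, adjusted p 3.46e-20). At the other end stood Ndufb3 of the distal P module, with 328 and 199.7 RPKM (-0.48, SE 0.14, adjusted p 0.00304). The SD across the 36 subunits was 0.32, against a median rebuilt SE of 0.15 per gene, so members differed in the size of their drop by more than a typical error. By module, all 8 N module, 8 Q module, 9 proximal P module and 11 listed distal P module genes were called lower, with deposited medians of -0.97, -1.08, -1.16 and -1.05.

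Among the assembly factors, 6 of 7 were called lower at 22 °C, with a deposited median of -0.88. Ndufaf5, which hydroxylates an arginine of Ndufs7, had deposited means of 8.49 RPKM in Control and 2.52 RPKM in KO at 22 °C, 8.31 and 5.75 RPKM at 24 h, and 8.37 and 4.95 RPKM at 7 d. Control means hardly moved, and KO stood below Control at each time. The deposited log2 fold change of Ndufaf5 at 22 °C was -1.52 (SE 0.19, adjusted p 1.10e-14), the third lowest of all members. Ndufaf4, which acts with Ndufaf3 on the Q module, had deposited means of 10.3 RPKM in Control and 3.78 RPKM in KO at 22 °C, 18.6 and 20.9 RPKM at 24 h, and 17.1 and 18.1 RPKM at 7 d. The KO mean at 22 °C was the lowest of its 6 means, and the Control mean at 22 °C was below the 4 means of the recovery groups. The deposited log2 fold change of Ndufaf4 at 22 °C was -1.21 (SE 0.18, adjusted p 2.63e-10). Ndufaf7, a methyltransferase of complex I assembly, was not called, with a deposited log2 fold change of -0.37 (SE 0.16, adjusted p 0.0740).

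The 2 genes placed outside complex I differed from each other. Ndufa4 had deposited means of 1334 RPKM in Control and 436 RPKM in KO at 22 °C, 1304 and 1001 RPKM at 24 h, and 1462 and 1003 RPKM at 7 d. KO was the lower genotype at each time, and the deposited log2 fold change at 22 °C was -1.38 (SE 0.15, adjusted p 1.67e-19). Ndufa4l2 had deposited means of 3.20 RPKM in Control and 2.88 RPKM in KO at 22 °C, 4.44 and 2.98 RPKM at 24 h, and 3.44 and 2.76 RPKM at 7 d, with no pair of groups called in any of the 5 deposited tables. Its low level gave it the widest error, an SE of 0.47 at 22 °C around a deposited log2 fold change of 0.12.

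Marker lists moved beside this result. The summed deposited mean of 9 brown adipocyte markers was 3939 RPKM in Control and 570.0 RPKM in KO at 22 °C, with 5 of 9 called lower and 1 higher. Most of the sum was Ucp1 (1607 and 32.8 RPKM), Cidea (1365 and 433 RPKM) and Cox7a1 (924 and 56.4 RPKM). Elovl3 was the 1 called higher (3.57 and 30.2 RPKM), and Dio2, Prdm16 and Zic1 were not called. Of 5 general adipocyte markers 4 were called higher, and their sums were 9919 RPKM in Control and 18949 RPKM in KO. Most of that sum was Fabp4, a fatty acid carrier, with 8202 and 16522 RPKM, while Adipoq had 840.3 and 1203 RPKM, and Pparg, which was not called, 169 and 158 RPKM. Of the 6 listed macrophage and 12 skeletal muscle markers, 0 were called at 22 °C by the deposited edgeR values. The part of any of these in the complex I values was not tested.

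**Figure D3:**
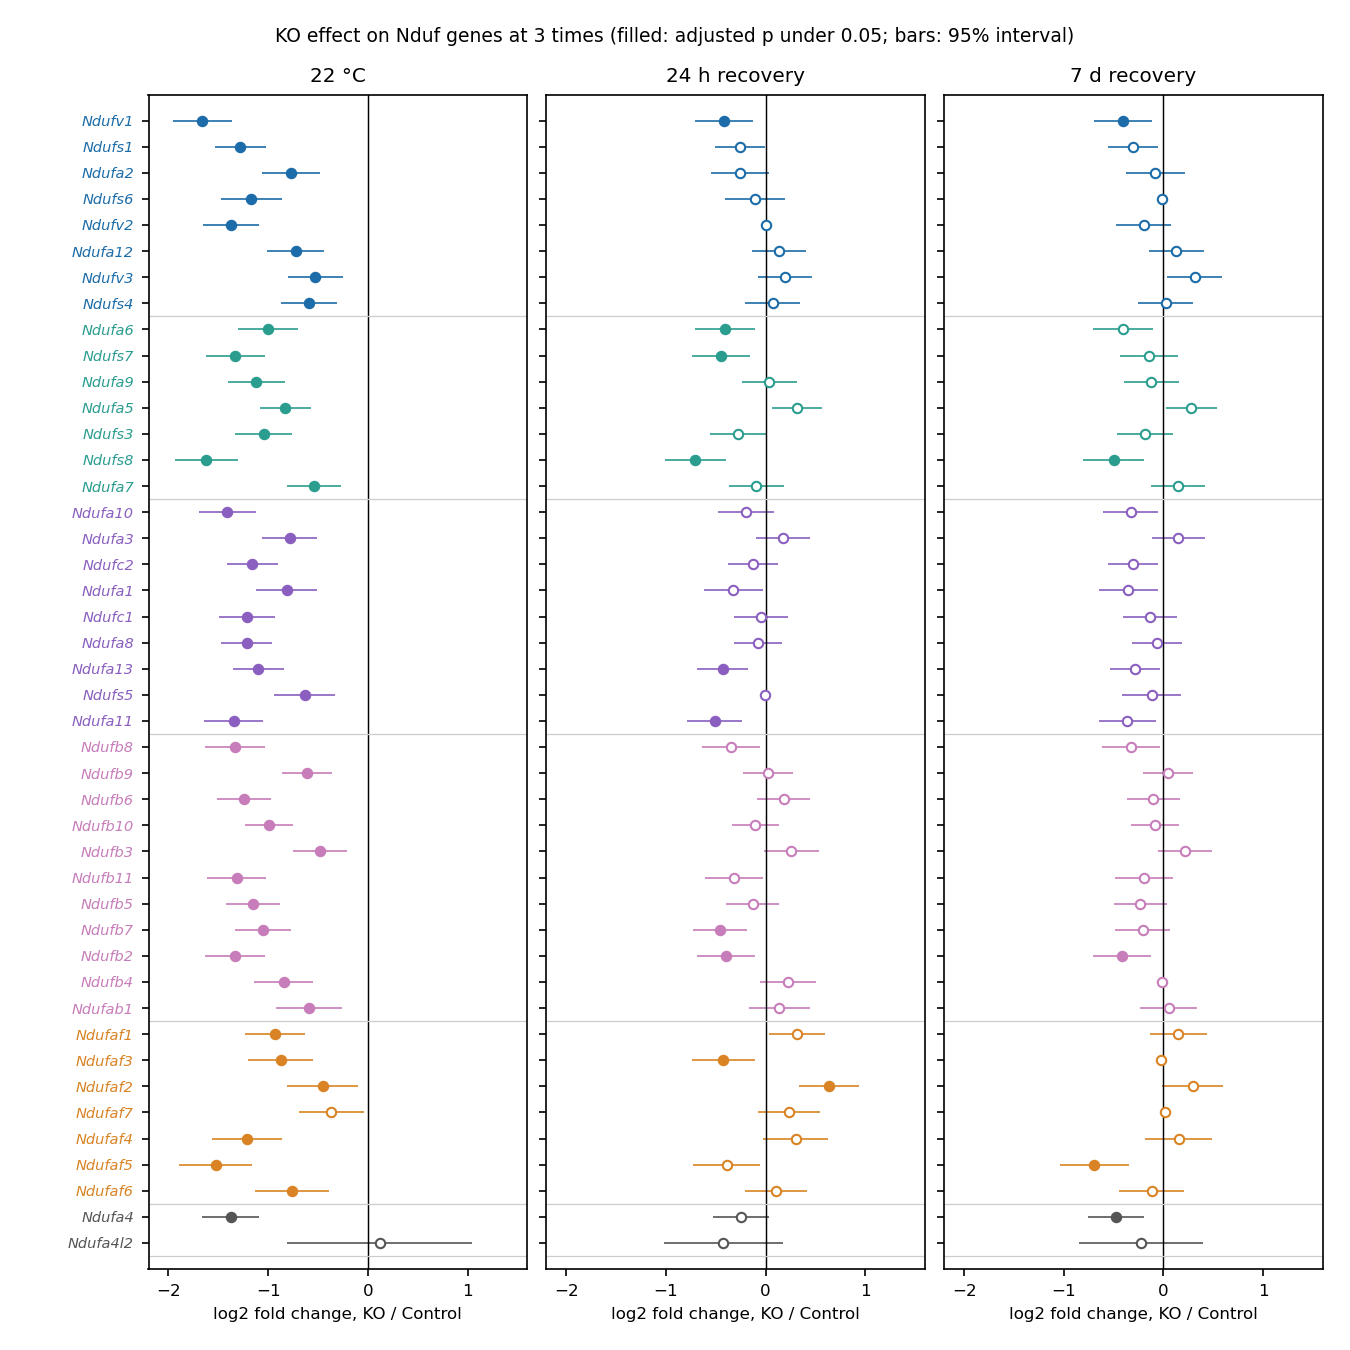
Deposited log2 fold change of KO over Control for 44 of the 45 Nduf genes at 22 °C, 24 h and 7 d of recovery, with filled points for adjusted p under 0.05, bars for the 95% interval from the rebuilt SE, and no bar where the p-value was too close to 1 to rebuild one. At 22 °C 42 points are filled, at 24 h 10 and at 7 d 5.

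At 24 h of recovery the comparison of KO with Control asks how much of that deficit is left after a cold day. Most complex I transcripts were not called then, 34 of 45, and the median log2 fold change in the authors' deposited table was -0.11, against -0.05 over all genes. The members called lower were 10, beside 7.96% called lower among all 12657 genes of the table. Among them were Ndufs7, Ndufs8 and Ndufa6 of the Q module, Ndufv1 of the N module, Ndufa11 and Ndufa13 of the proximal P module, Ndufb2 and Ndufb7 of the distal P module, and Ndufaf3. At an adjusted p under 0.01 the members called lower were 4, with no share over all genes counted at that level. The 1 member called higher was Ndufaf2, beside 10.5% called higher among all genes.

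At 24 h, 4 of the 7 core subunits were called lower, with a deposited median of -0.41, and 5 of the 29 supernumerary subunits, with a median of -0.09; the difference between these groups was not tested. Ndufs8 had the lowest deposited value at 24 h, -0.71 (SE 0.16, adjusted p 1.29e-04). It was followed by Ndufa11, with -0.51 (SE 0.14, adjusted p 0.00373), and Ndufb7, an intermembrane space subunit, with -0.46 (SE 0.14, adjusted p 0.00786). Ndufa11 had deposited means of 28.9 RPKM in Control and 9.65 RPKM in KO at 22 °C, 54.4 and 34.8 RPKM at 24 h, and 38.0 and 28.3 RPKM at 7 d, the highest of them in Control at 24 h. Of the 43 members with a rebuilt error at 24 h, 41 had a 95% interval that excluded a 2-fold lower level in KO, and the lowest bound was -1.02 on the log2 scale.

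Ndufaf2 and Ndufa12 are paralogues, and in assembly Ndufaf2 holds the place that Ndufa12 takes at the end. Ndufaf2 had deposited means of 13.2 RPKM in Control and 8.10 RPKM in KO at 22 °C, 17.3 and 24.4 RPKM at 24 h, and 18.3 and 21.6 RPKM at 7 d. KO was below Control at 22 °C and above it at 24 h and 7 d, with deposited log2 fold changes of -0.45 (SE 0.18, adjusted p 0.0401) and 0.63 (SE 0.15, adjusted p 5.55e-04) at the earlier 2 times. Ndufa12 had deposited means of 163 RPKM in Control and 83.8 RPKM in KO at 22 °C, 242 and 242 RPKM at 24 h, and 204 and 213 RPKM at 7 d, so both genotypes stood level at 24 h. Its deposited log2 fold change went from -0.72 (SE 0.14, adjusted p 4.48e-06) at 22 °C to 0.13 (SE 0.14, adjusted p 0.597) at 24 h. Other members with the highest deposited values at 24 h were Ndufaf1 (0.32, SE 0.14, adjusted p 0.119) and Ndufa5 (0.31, SE 0.13, adjusted p 0.0748), neither of them called.

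At 7 d of recovery most complex I transcripts were again not called, 40 of 45, and the deposited median was -0.12. No member was called higher (0 of 45), beside 9.18% called higher and 6.14% called lower among all 12467 genes of the table. The 5 called lower were Ndufaf5 (-0.69, SE 0.18, adjusted p 0.00161), Ndufs8 (-0.50, SE 0.16, adjusted p 0.0133), Ndufa4 (-0.48, SE 0.14, adjusted p 0.00965), Ndufb2 (-0.42, SE 0.15, adjusted p 0.0361) and Ndufv1 (-0.40, SE 0.15, adjusted p 0.0458), all in the authors' deposited table. At an adjusted p under 0.01 they were 2, with no share over all genes counted at that level. Ndufb2, a small membrane subunit, had deposited means of 193 RPKM in Control and 65.0 RPKM in KO at 22 °C, 281 and 194 RPKM at 24 h, and 221 and 158 RPKM at 7 d. Ndufb2, Ndufs8 and Ndufv1 were the 3 members called lower at all 3 times, and 31 members were called lower at 22 °C and at neither later time. This overlap was not counted over all genes, of which 18.0%, 7.96% and 6.14% were called lower at 22 °C, 24 h and 7 d. Whether the overlap is particular to the members was therefore not tested. The highest deposited values at 7 d were those of Ndufv3 (0.31, SE 0.14, adjusted p 0.122), Ndufaf2 (0.29, SE 0.16, adjusted p 0.221) and Ndufa5 (0.28, SE 0.13, adjusted p 0.148). A 95% interval excluded a 2-fold lower level in KO for 40 of the 41 members with a rebuilt error at 7 d, with a lowest bound of -1.04.

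Whether the KO effect itself differed between times was tested gene by gene. From 22 °C to 24 h it moved up for 38 of 43 members tested and down for 0 (adjusted p under 0.05), beside 10.8% up and 7.39% down among 10734 genes. From 22 °C to 7 d it moved up for 37 of 41 members and down for 0, beside 9.53% and 5.29% among 10591 genes. The median size over the members was 0.92 and 0.90 on the log2 scale. Between 24 h and 7 d the test called 0 of 39 members, 0 of them also at an unadjusted p under 0.05, beside 0.115% up and 0.0863% down among 10425 genes. The members' differences between these times ran from -0.34 to 0.30 on the log2 scale, and missing the threshold does not show that the effects were equal. For the core subunits the difference from 22 °C to 7 d ranged from 0.86 to 1.26. Ndufaf4 moved furthest in both tests, by 1.52 (SE 0.25, adjusted p 4.04e-08) to 24 h and by 1.37 (SE 0.25, adjusted p 1.87e-06) to 7 d. Both tests against 22 °C rest on the same 22 °C libraries. Members not tested for want of an error were Ndufs5 and Ndufv2 at 24 h, and Ndufaf3, Ndufaf7, Ndufb4 and Ndufs6 at 7 d.

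The order of members was partly kept over time. Across the 45 genes, the deposited KO effect at 22 °C correlated with that at 24 h (Spearman rho 0.52, Pearson r 0.49) and at 7 d (rho 0.71, r 0.64), and the 24 h effect with the 7 d effect (rho 0.79, r 0.81). These are descriptions over genes, which share libraries, depth and gene length within a table and are not independent replicates. Ndufs8 was among the 2 lowest values at each time, and Ndufaf2 and Ndufb3 were among the 5 highest.

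The recovery comparisons ask what the cold day left behind within each genotype. In Control mice, 18 of 45 members were called higher at 24 h than at 22 °C and 0 lower, beside 13.1% called higher and 8.67% lower among the 12830 genes of the authors' deposited table. The deposited median was 0.29, and 43 members lay above 0. Of the 18 calls, 10 were of at least 1.5-fold, with no share over all genes counted at that fold. In KO mice, 43 of 45 members were called higher and 0 lower, beside 22.1% and 19.8% among 12577 genes, and the deposited median was 1.24. The 2 members not called in KO were Ndufa7 and Ndufa4l2. The KO recovery table shares its 22 °C libraries with the table of KO against Control at 22 °C, so the low values there enter both.

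The largest deposited changes in Control were those of Ndufa11 (0.98, SE 0.14, adjusted p 1.28e-09), Ndufb7 (0.95, SE 0.14, adjusted p 1.00e-09) and Ndufaf4 (0.91, SE 0.17, adjusted p 3.76e-06). Ndufb7 had deposited means of 223 RPKM in Control and 91.5 RPKM in KO at 22 °C, 412 and 273 RPKM at 24 h, and 274 and 226 RPKM at 7 d, and Control at 24 h stood above each of the other 5. The lowest deposited values were those of Ndufa7 (-0.28, SE 0.14, adjusted p 0.143), Ndufv1 (-0.12, SE 0.15, adjusted p 0.652) and Ndufb3 (0.02, SE 0.14, adjusted p 0.972), none of them called. By module, 3 of 8 N, 2 of 8 Q, 4 of 9 proximal P and 6 of 11 distal P module genes were called higher, and 3 of 7 assembly factors (Ndufaf2, Ndufaf4 and Ndufaf6). Core subunits called higher in Control were Ndufv2 (0.61, SE 0.14, adjusted p 2.61e-04) and Ndufs8 (0.61, SE 0.16, adjusted p 0.00112).

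In KO the largest deposited changes were those of Ndufaf4 (2.43, SE 0.18, adjusted p 9.58e-39), Ndufb6 (2.03, SE 0.14, adjusted p 3.66e-45) and Ndufv2 (1.99, SE 0.15, adjusted p 5.26e-40). Ndufb6, a membrane subunit of the distal P module, had deposited means of 351 RPKM in Control and 126 RPKM in KO at 22 °C, 513 and 529 RPKM at 24 h, and 445 and 395 RPKM at 7 d, so the KO mean passed from the lowest of the 6 to the highest. Ndufa7 of the Q module had deposited means of 124 RPKM in Control and 72.6 RPKM in KO at 22 °C, 97.6 and 83.3 RPKM at 24 h, and 113 and 119 RPKM at 7 d, the highest of them in Control at 22 °C, and its deposited log2 fold change in KO was 0.17 (SE 0.14, adjusted p 0.366). After Ndufa4l2 and Ndufa7, the smallest change in KO was that of Ndufaf3 (0.49, SE 0.17, adjusted p 0.01004), which was called. In 44 of 45 members the deposited value was larger in KO than in Control, the exception being Ndufa4l2. This is the same contrast as the KO effect at 24 h minus that at 22 °C, tested above, and not a further result. Over the 45 genes the 2 deposited changes had a Spearman rho of 0.72 and a Pearson r of 0.67, given as a description; the 2 tables share no library.

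**Figure D4:**
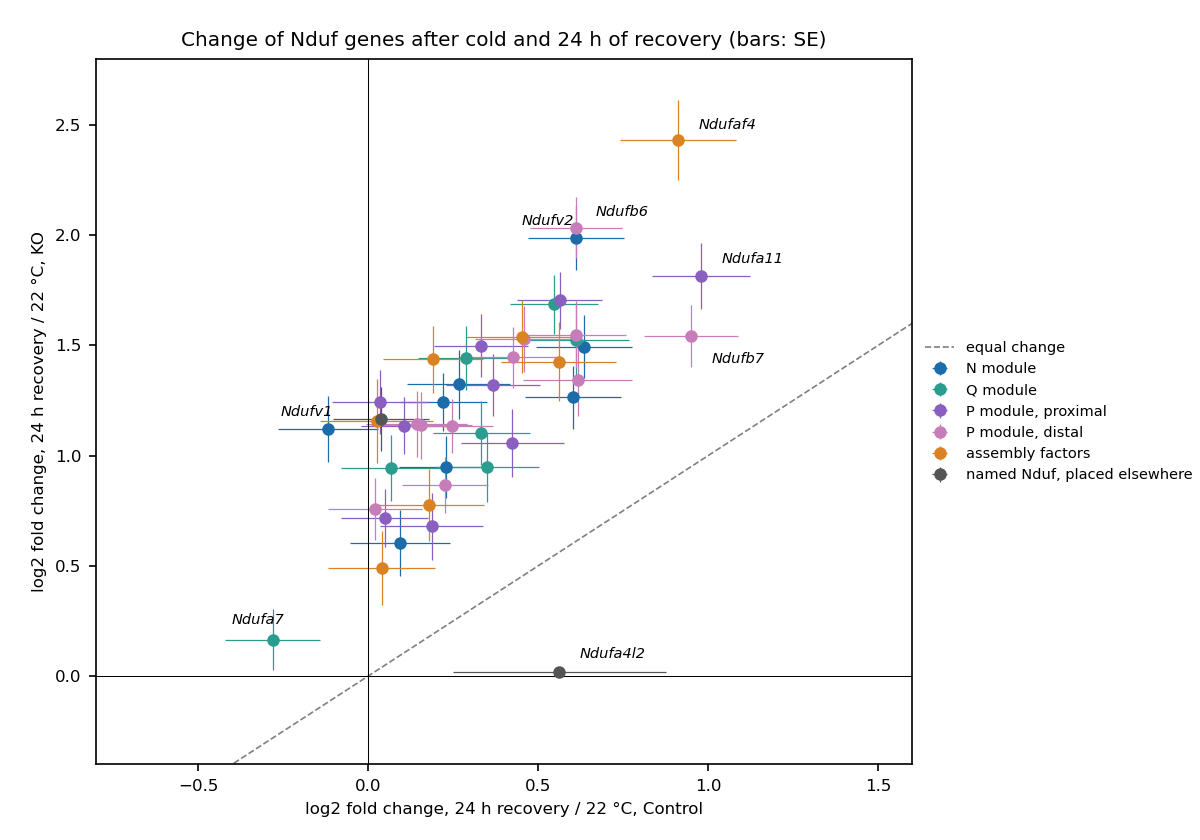
Deposited log2 fold change from 22 °C to 24 h of recovery in Control (horizontal axis) and KO (vertical axis), 1 point for each of 44 Nduf genes coloured by module, with bars for the rebuilt SE and none where it could not be rebuilt. All points but Ndufa4l2 lie above the dashed line of equal change, and Ndufaf4 is highest at 2.43 in KO. Height above that line restates the KO effect at 24 h minus that at 22 °C.

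Markers of other cells in the pad also moved during recovery. All 6 listed macrophage markers were called higher in Control at 24 h than at 22 °C in the authors' deposited table, beside 13.1% of all genes. Their summed mean went from 82.0 to 209.6 RPKM. In KO 0 of 6 were called, and the sum was 98.9 and then 125 RPKM. By the test of the KO effect at 24 h minus that at 22 °C, 2 of the 6 were called below 0 and 4 were not called, beside 7.39% of genes called below 0. The 9 brown adipocyte markers summed to 7987 RPKM in Control and 6857 RPKM in KO at 24 h, and to 5896 and 4660 RPKM at 7 d. Ucp1 alone had 4966 and 3884 RPKM at 24 h. Of the 9, 1 (Elovl3) was called higher in KO than in Control at both times, while 2 were called lower at 24 h and 1 at 7 d. Of the 5 general adipocyte markers, 4 were called higher in KO at 24 h and 3 at 7 d, and 0 lower. Skeletal muscle, itself rich in complex I, had marker sums of 125 and 129 RPKM in Control and KO at 22 °C, 217 and 124 RPKM at 24 h, and 757 and 638 RPKM at 7 d. All 12 muscle markers stood higher at 7 d than at 22 °C in both genotypes, with median centred log2 ratios of means of 2.82 in Control and 2.28 in KO, and no deposited comparison sets 7 d against 22 °C, so that rise has no test. Of the 4 white adipocyte markers, 2 were called higher in KO than in Control at 22 °C (Lep and Retn), 3 at 24 h (Lep, Retn and Nnat) and 0 at 7 d. Of the 5 erythroid markers 2 were called, at 7 d alone, the near-identical hemoglobin genes Hba-a1 and Hba-a2, both higher in KO, with a list median of 0.80 in the deposited log2 fold changes. Of the 4 fibroblast markers Col1a1 was called lower in KO at 24 h and at 7 d, and of the 5 endothelial markers Tie1 was called lower at 24 h and Kdr higher at 7 d. With 24 h of recovery Lep and Nnat were called lower in both genotypes, Col1a1 higher in Control and Dcn lower in KO. Their part in the complex I values was not tested.

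No deposited table joins the 7 d groups with the earlier ones, so the level at 7 d is described by ratios of group means centred on the median of all genes, with no test. Against 22 °C, the median over the 45 members was 0.30 in Control, with 42 above 0, and 1.23 in KO, with 44 above 0. Against 24 h, the medians were -0.01 in Control and -0.01 in KO. Ndufaf4 stood furthest above its 22 °C level in both genotypes, by 0.84 in Control and 2.19 in KO. In Control at 7 d, Ndufb7 stood furthest below its 24 h level (-0.52), and Ndufa1, a small membrane subunit, stood furthest above it (0.41). As plain ratios of means, KO at 22 °C stood at a median of 41.1% of Control, from 26.8% for Ndufv1 to 90.1% for Ndufa4l2. The KO means at 24 h and 7 d stood at medians of 84.4% and 87.5% of the Control means of the same time. Such ratios lie below the deposited fold changes, at 22 °C by a median over all genes of 0.234 on the log2 scale. On the deposited scale the median over the 45 members at 22 °C was -1.05, and Ndufa4l2 had 0.12.

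The genes of assembly factors not named Nduf were followed as the rest of the pathway. Of the 10 listed, 8 were called lower in KO at 22 °C in the authors' deposited table, among them Ecsit (-0.94, adjusted p 1.62e-10) and Acad9 (-0.69, adjusted p 3.31e-06), partners of Ndufaf1 in early membrane arm assembly, and Foxred1 (-1.06, adjusted p 2.59e-12). At 24 h 2 were called lower and 1 higher, and at 7 d 1 was called lower. With recovery, 5 of 10 were called higher in Control and 8 of 10 in KO, beside the shares over all genes given above. Nubpl, which delivers iron-sulfur clusters to the complex, was called lower in KO at 22 °C (-0.67, adjusted p 0.00159), 24 h (-0.69, adjusted p 0.00312) and 7 d (-0.61, adjusted p 0.00902). Its deposited means were 14.2 RPKM in Control and 7.58 RPKM in KO at 22 °C, 12.3 and 6.96 RPKM at 24 h, and 15.6 and 9.75 RPKM at 7 d, and in KO its deposited change with recovery was -0.16 (adjusted p 0.576). Nubpl was the only one of the 10 called lower at all 3 times.

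Other complexes of the respiratory chain are set beside complex I for scale, and differences between these lists were not tested. In KO at 22 °C the authors' deposited table called lower 4 of 4 complex II genes (median -1.22), 10 of 10 complex III and cytochrome c genes (median -1.08) and 13 of 15 complex IV genes (median -0.95). At 24 h these lists held 1, 1 and 2 genes called lower, and at 7 d 0, 0 and 3. With recovery in KO, 4 of 4, 10 of 10 and 12 of 14 were called higher, with deposited medians of 1.29, 1.45 and 0.95. In Control, the counts called higher were 1 of 4, 7 of 10 and 4 of 15.

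**Figure D5:**
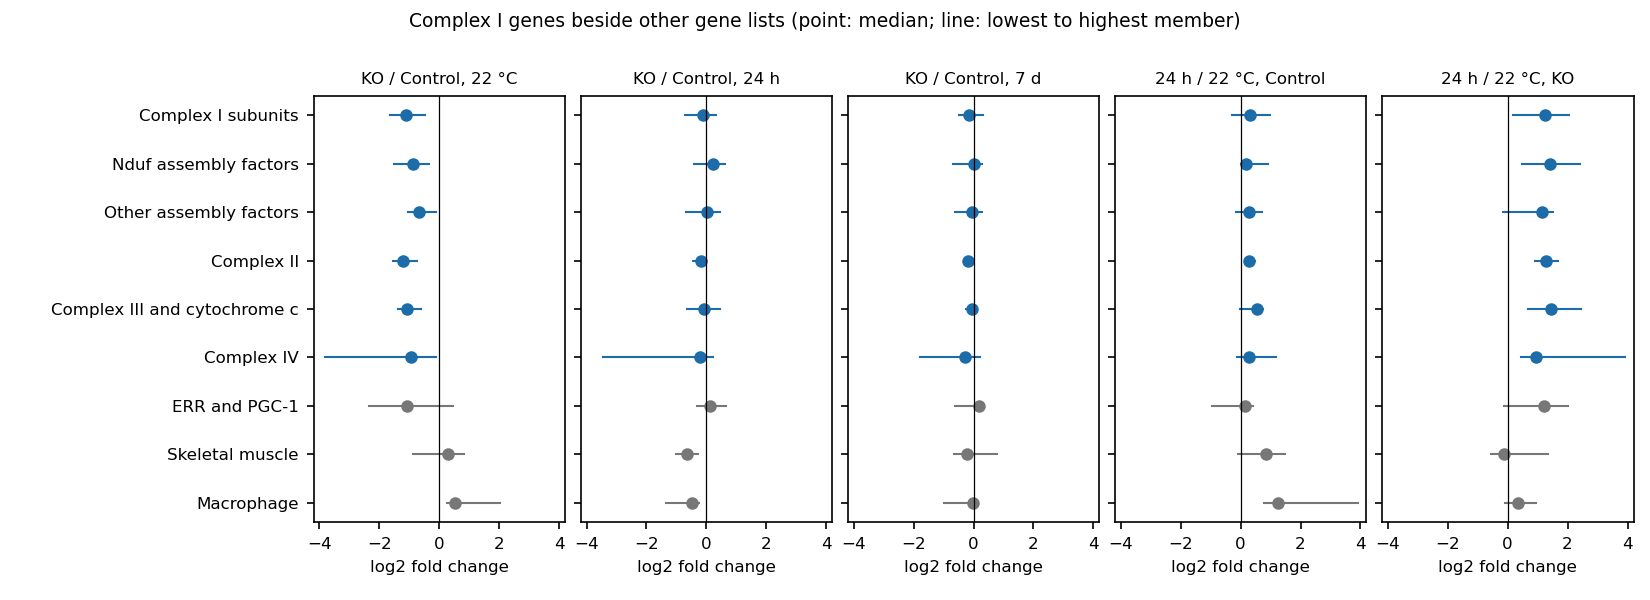
Median (point) and lowest to highest member (line) of the deposited log2 fold change for complex I subunits, assembly factors, other respiratory complexes and, in grey, ERR and PGC-1 genes and markers of skeletal muscle and macrophages, in each of the 5 comparisons. Complex I subunits sit at -1.11 for KO over Control at 22 °C and at -0.12 and -0.14 at 24 h and 7 d.

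Members with an NRF1 match in their promoter can be set beside those without. The 9 with a match had a median deposited log2 fold change of -1.17 for KO at 22 °C and the 30 without a match -1.08. With recovery in KO the medians were 1.53 and 1.20, and in Control 0.46 and 0.24. Splits by other motifs stand beside these: the 5 members with an ETS match had medians of 1.53 in KO and 0.61 in Control, against 1.20 and 0.28 for the 34 without, and the 7 with a YY1 match 1.27 and 0.27, against 1.28 and 0.36 for the 32 without. Ndufb4, whose promoter is printed above with 3 matches, had deposited changes of 0.46 (SE 0.14, adjusted p 0.0116) in Control and 1.53 (SE 0.15, adjusted p 7.48e-23) in KO with recovery. Ndufs8 and Ndufv1 had no match in the bases printed, but Ndufs8 counts among the 5 ETS members for its match after the start. Ndufs8 had 0.61 (SE 0.16, adjusted p 0.00112) and 1.53 (SE 0.16, adjusted p 5.79e-20), and Ndufv1 had -0.12 (SE 0.15, adjusted p 0.652) and 1.12 (SE 0.15, adjusted p 1.37e-12). No test was made of these differences.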

How the data were processed

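The values are those of 5 tables that the authors deposited, each comparing a pair of the 6 groups of 4 libraries. RNA was taken up in TRIzol, cleaned on RNeasy columns, depleted of ribosomal RNA with Ribo-Zero and made into TruSeq libraries, per the labels' protocols. STAR, featureCounts, edgeR and the mouse build mm9 are named in the submitters' processing notes, without versions or settings. Per the file headers, each table gives the log2 fold change of the authors, an average log2 CPM, a p-value and an adjusted p-value. The deposited group means have no unit in the headers and were read as RPKM, because with gene length they gave the deposited average CPM up to a near-constant gap. The authors' adjustment ran over 13414 genes, and a table lists a gene where the higher of its group means reaches 0.5 RPKM. No column of another sample was present. No test of counts was run, as the tables hold no library values, and the sources used here do not say which edgeR test was run.

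Totals per library were estimated, not measured, from the step size of low deposited means by a search with a set lower bound (mean 8.39e+06 ± 1.90e+06 SD, n = 24). Labels call the libraries biological replicates but do not say that each is from its own mouse, so p-values measure the spread between these samples. Errors were rebuilt as the fold change over the normal score of its p (p up to 0.9). The KO effects of 2 times were compared by their difference over the root of the summed squared errors, with a normal p and Benjamini-Hochberg adjustment over all genes with both errors. The 24 h difference has its error from the KO tables or, for 9429 genes, from the recovery tables too, with a median ratio of 1.000 (quartiles 0.988 and 1.01). This test was also run on simulated data with known changes. For 22 °C to 24 h, 22 °C to 7 d and 24 h to 7 d, it recovered 98 of 188, 91 of 190 and 119 of 190 changes of log2 size 1. Of changes of log2 size 0.5 it recovered 9 of 187, 11 of 187 and 4 of 192, so it missed most of them. At size 0.5, 10%, 21.4% and 0% of its calls were false. The simulation drew normal noise with the rebuilt errors themselves, so it cannot show that these errors or the normal p hold for the data. For 22 °C to 24 h at size 1 it changed 188 of 9916 genes tested, while the data called 10.8% up and 7.39% down. Its rates of recovered and false calls therefore do not carry over to the data. Ratios of means used a pseudocount of 0.1 RPKM. Python 3.11.15, pandas 2.3.3 and scipy 1.17.1 were used.

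The members, gene lists and tests were chosen with earlier results of these data known. Every Nduf gene could be named, and full values were given to core subunits other than 1, the 3 highest and 3 lowest per comparison, members called against the rest, Ndufa4, Ndufa4l2, Ndufa12 and Ndufaf2. The values of 1 member are in the counts and are not reported here. Ndufb1 and Ndufb1-ps were not among the listed rows. The reference annotation is of another build than mm9, so coordinates are given for RefSeq promoters alone. Endothelial, fibroblast, erythroid and white adipocyte marker lists were also counted.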

Additional observations from a re-analysis of the deposited data

Results flagged for a closer look

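The KO effect differed between times by a test of the difference itself. From 22 °C to 24 h it did so for 38 members, with the largest differences for Ndufaf4 (1.52, SE 0.25, adjusted p 4.04e-08), Ndufb6 (1.42, SE 0.19, adjusted p 2.11e-11) and Ndufaf1 (1.25, SE 0.21, adjusted p 1.62e-07). From 22 °C to 7 d it did so for 37 members, with the largest for Ndufaf4 (1.37, SE 0.25, adjusted p 1.87e-06), Ndufv1 (1.26, SE 0.21, adjusted p 2.15e-07) and Ndufs7 (1.18, SE 0.21, adjusted p 1.57e-06). Each difference is on the log2 scale, and each was above 0.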

How the results depend on the processing

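At an adjusted p under 0.01 in place of 0.05, the members called lower in KO numbered 4 in place of 10 at 24 h and 2 in place of 5 at 7 d. With 0.05 and a fold of at least 1.5, they numbered 1 at 24 h and 1 at 7 d, and the members called higher in Control recovery 10 in place of 18. Shares over all genes were counted at 0.05 alone, so these counts have no background beside them. Another 105 values of counts and medians stayed within 1.5 times or within 0.143 log2 of the reported one, and 0 called values changed sign under any of the settings run. Part of the 105 could hardly move. Settings with ratios of means kept the deposited adjusted p, so a call could change only in sign. A minimum average log2 CPM of 1 dropped no member, the lowest being Ndufa4l2 at 2.24. The number 105 is therefore not a measure of robustness. Over single genes, each counted once per comparison, 26 calls were lost at 0.01 and 26 with the fold required, which came to 36 different calls in 27 genes under any setting, and Ndufa6 at 7 d gained one when p-values were adjusted over listed genes alone. No paired analysis was possible because the tables hold no value per library, and for the same reason leaving out each library in turn was not run. The widest error of KO over Control at 22 °C was that of Ndufa4l2, 0.47 on the log2 scale, against 0.12 to 0.19 for the other members.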

Other observations

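Genes of the ERR and PGC-1 group, regulators that act on respiratory chain genes, were counted beside complex I. In KO at 22 °C the authors' deposited table called 6 of 7 lower and 1 higher. Esrrg, which encodes an ERR, had deposited means of 5.95 RPKM in Control and 0.993 RPKM in KO at 22 °C, 2.89 and 4.16 RPKM at 24 h, and 3.91 and 4.22 RPKM at 7 d, and its KO effect went from -2.34 (adjusted p 4.46e-25) at 22 °C to 0.65 (adjusted p 0.0106) at 24 h. Esrra had -1.08 (adjusted p 4.76e-14) and -0.31 (adjusted p 0.0824), and the coactivator gene Ppargc1b had -1.50 (adjusted p 1.09e-09) and 0.12 (adjusted p 0.816). Gabpa, an ETS factor gene, was called lower in KO at 22 °C (-0.52, adjusted p 3.70e-04) and higher at 24 h (0.64, adjusted p 1.45e-05). The mitochondrial transcription factor gene Tfam was likewise called lower at 22 °C (-0.48, adjusted p 7.94e-04) and higher at 24 h (0.52, adjusted p 3.11e-04), and Esrrg was the other gene of the list called higher at 24 h. Nrf1, whose product binds the motif searched above, was the 1 gene of the list called higher in KO at 22 °C (0.47, adjusted p 0.0113), at deposited means of 2.47 RPKM in Control and 2.89 RPKM in KO. With recovery, Esrrg fell in Control (-0.97, adjusted p 3.84e-05) and rose in KO (2.03, adjusted p 4.20e-19), by the deposited edgeR values.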
